A study of Bos taurus with 16 samples.

Results

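The genes described here are 7 genes of epithelial cells: the surface proteins EPCAM and MUC1, the splicing regulator ESRP1, the transcription factors ELF3 and EHF, and the protease inhibitors SPINT1 and SPINT2. They were chosen by name, as probes of a bovine array whose gene name, or the symbol in their description, was that of the gene. The 7 genes had 8 of the 21475 probes of the array, 2 of them for EHF and 1 for each other gene. The EPCAM probe carries the older symbol TACSTD1 and was found through its accession in a RefSeq gene table, and the ESRP1 probe was found there through its gene identifier. All 8 probes were well above background often enough to be tested.

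The study compared CD14+ cells, that is, cells sorted for a surface receptor of monocytes and macrophages, from the endometrium with those from the blood of 4 pregnant cows. Animals 1 to 4 were at days 164, 239, 242 and 248 of pregnancy. The uterus and blood came from an abattoir, the endometrium between the placentomes was dispersed with collagenase, and the cells were sorted by flow cytometry in 2 rounds. By the labels' cytometry, the endometrial cells were 90 to 95% pure and the blood cells 98 to 99% pure. RNA of both tissues of an animal was amplified and hybridized together on 2-colour arrays, 2 arrays for each animal, 1 on each of 2 slides. The dyes were exchanged between the arrays of animals 1, 2 and 4, whereas animal 3 had endometrial RNA in Cy5 on both, so that dye and tissue cannot be told apart in animal 3. Only 1 cow was far from the others in day of pregnancy, so day and animal cannot be told apart either.

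EPCAM is an adhesion molecule of the lateral membrane of most simple epithelia, and MUC1 is a transmembrane mucin of the free surface, where it forms part of the glycocalyx of the uterine lumen and glands. ESRP1 directs the splicing of transcripts to their epithelial isoforms, and ELF3 and EHF are factors of the ETS family whose expression is largely restricted to epithelia. SPINT1 and SPINT2 are membrane inhibitors of the Kunitz type that restrain serine proteases of the epithelial surface, such as matriptase, and the activation of hepatocyte growth factor. None of them is a usual marker of monocytes or macrophages.

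The probes are 60 bases long, and 30 bases of each, 5′ to 3′ in the sense of the transcript, are shown because the letters bear on where in the transcript each gene was read. The capitals mark the hexamers AATAAA or ATTAAA, the usual signals for polyadenylation.
EPCAM: tgtccatttgtcATTAAAtagctgctttcc
MUC1: tgaacatggctgAATAAAatgcagacctcc
ESRP1: gaatactgtggcttcgtatgtattatttta
ELF3: aggggacgctccAATAAAgtgccttctgga
EHF, brighter probe: ccagaaaacactAATAAAaattacagagac
EHF, dimmer probe: atcagagggcATTAAAtgtttttatatgca
SPINT1: cgggccagagtccactcagtggAATAAAgt
SPINT2: tctgtttgttcttccagaaggtgagagggc
One of the hexamers was found in 6 of the 8 member probes, on the printed strand only, and in 15.5% of all 21475 probes. The probes of ESRP1 and SPINT2 held neither. No other probe of the array shared a run of 20 bases with any of the 8. The probes were designed on an earlier genome build than the gene table, so no coordinates are given.

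The values are log2 normalized signals that the authors deposited, and a log2 ratio is the level in endometrium less the level in blood of the same animal, averaged over its 2 arrays. A gene was called where limma's test of the 4 ratios against 0, adjusted over the 16653 probes tested, gave a p no higher than 0.05 and the fold exceeded 2. An exact 2-sided permutation test over 4 animals cannot give a p under 0.125. The direction of every ratio follows the columns of the authors' table. By the ranks of the signals, each column matched that animal's other scanner file, in the labeled dye. With the files read as attached the ratios of animals 1, 2 and 4 turn their sign for all 8 probes. Animal 3, with the same dyes on both arrays, kept its sign for all 8 probes under either reading. In animals 1, 2 and 4 the ratio of a probe differed between the opposite dye orientations by a median of 0.25 and by at most 1.40. In sorted cells, a larger share of cells that hold a transcript and more of it in each cell cannot be told apart.

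The 7 genes had higher mean levels in the endometrial than in the blood CD14+ cells, ELF3 only with animal 3 included. By the means of 2 arrays, EPCAM, MUC1, EHF and SPINT2 were higher in each of the 4 animals. For EHF the log2 ratio of animal 1 was only 0.05 on the brighter probe. MUC1 in animal 4 was well above background on neither blood array and on 1 endometrial array. EPCAM alone passed the test, at 21.3-fold. The median log2 ratio of the 7 genes was 2.59, against -0.14 over all probes tested. Being called higher in endometrium held for 1 of the 7 genes and for 1.23% of all probes tested, while 1.35% were called in either direction. By sign alone, a higher level in 4 of 4 animals was found for 5 of 7 genes and 9.82% of all probes. The fifth gene, ESRP1, was counted in animal 4 by values not well above background in either tissue, with ratios of -0.43 and 0.71 on its 2 arrays. The mean fold exceeded 2 in 6 of 7 genes and 14.8% of all probes. With this fold and an unadjusted p no higher than 0.05, termed the unadjusted threshold below, 5 of 7 genes and 7.98% of all probes were higher. ESRP1 is 1 of these 5, with blood values not well above background in 3 of the 4 animals, and it passed the filter on dim probes through endometrium.

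**Figure D1:**
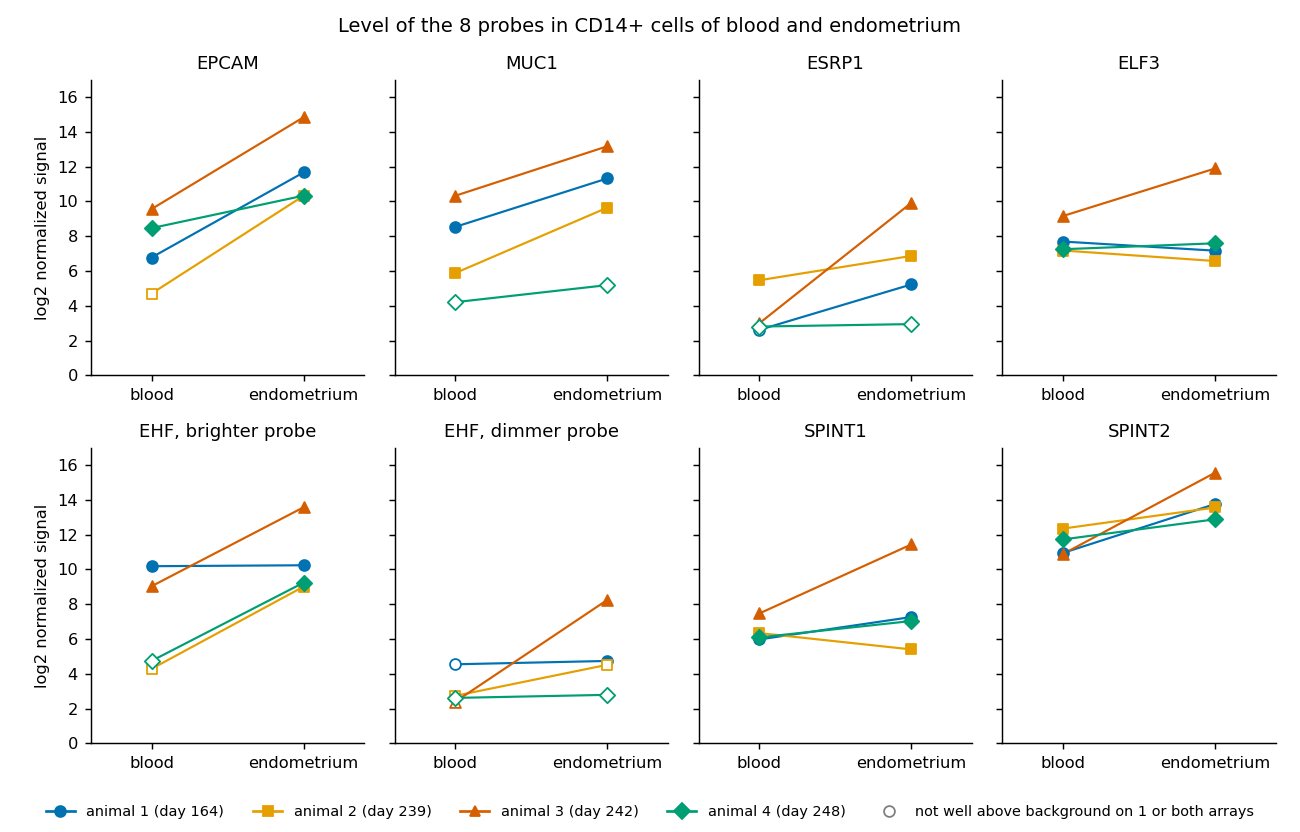
Log2 normalized signal (y axis) of each of the 8 probes in CD14+ cells of blood and of endometrium (x axis), with a line for each of the 4 animals and each point the mean of 2 arrays. Open symbols mark values not well above background on 1 or both arrays. Animal 3 has the highest endometrial level of every probe, from 8.25 for the dimmer EHF probe to 15.56 for SPINT2.

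EPCAM, which mediates contact between epithelial cells, was at 11.67, 10.33, 14.84 and 10.33 in the endometrial cells of animals 1 to 4 on the log2 scale. In their blood cells it was at 6.78, 4.70, 9.56 and 8.47. The endometrial levels lay above all blood levels, and the highest level in both tissues was that of animal 3. The log2 ratios were 4.89, 5.62, 5.28 and 1.87, with a mean of 4.41 ± 0.71 (SE, n = 4 animals) and an adjusted p of 0.0394 by limma. Groups that did not overlap, with endometrium higher, were found for 2 of the 7 genes, EPCAM and SPINT2, and for 2.7% of all probes tested. The call of EPCAM was lost when any 1 animal was left out, with adjusted p values of 0.0574 to 0.151 and log2 ratios of 4.01 to 5.26. It was lost as well without the pairing of tissues within animals, at an adjusted p of 0.394, and with normexp and loess applied to the scanner signals, at a log2 ratio of 3.03 and an adjusted p of 0.247.

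MUC1, the surface mucin, was at 11.33, 9.65, 13.18 and 5.19 in endometrium and at 8.54, 5.89, 10.33 and 4.21 in blood. The levels of the 2 tissues overlapped between animals, since the animals differed more than the tissues, over a range of 7.98 in endometrium and 6.12 in blood. Animal 3 was the highest and animal 4 the lowest in both tissues, and the blood level of animal 4 was not well above background on either array. Within animals the log2 ratios were all above 0, at 2.79, 3.76, 2.85 and 0.98. Their mean was 2.59 ± 0.58 (SE, n = 4), a fold of 6.04, with an adjusted p of 0.117 by limma. MUC1 passed the threshold in 1 alternative, the fit of the 8 arrays with a dye term, at an adjusted p of 0.0332.

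ESRP1, the splicing regulator, was at 5.23, 6.87, 9.92 and 2.95 in endometrium and at 2.62, 5.47, 3.00 and 2.81 in blood. Only animal 2 had it well above background in blood, on both arrays, and animals 1, 2 and 3 had it so in endometrium. In animal 4 it was well above background in neither tissue, so that its ratio sets no order between them. The log2 ratios of 2.61, 1.40, 6.93 and 0.14 spread widely around a mean of 2.77 ± 1.06 (SE, n = 4), and the adjusted p was 0.275 by limma. The mean was 1.38 without animal 3.

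Both ETS factors among the members were measured, and they differed in their ratios. ELF3 was at 7.17, 6.58, 11.90 and 7.60 in endometrium and at 7.70, 7.18, 9.17 and 7.26 in blood. Outside animal 3, whose endometrial level lay 4.30 above the next, the levels of the tissues overlapped. The log2 ratios were -0.52, -0.60, 2.73 and 0.34, with a mean of 0.49 ± 0.67 (SE, n = 4) and an adjusted p of 0.767 by limma. Without animal 3 the mean turned to -0.26, so no direction is given for ELF3.

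EHF was read by 2 probes, which bind different stretches of the same transcript record. The brighter of them was at 10.24, 9.01, 13.57 and 9.24 in endometrium and at 10.18, 4.28, 9.03 and 4.74 in blood. The blood cells of animal 1 were as bright as its endometrial cells, whereas blood of animals 2 and 4 stood near background. The log2 ratios were 0.05, 4.73, 4.54 and 4.50, with a mean of 3.46 ± 0.86 (SE, n = 4) and an adjusted p of 0.158 by limma. Without animal 1 the mean was 4.59 and the adjusted p 0.0478, past the threshold.

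The dimmer EHF probe was at 4.74, 4.52, 8.25 and 2.79 in endometrium and at 4.54, 2.73, 2.40 and 2.61 in blood. It was well above background in both arrays of endometrium in animals 1 and 3, and in 1 of the 8 blood channels, in animal 1. The log2 ratios were 0.19, 1.79, 5.86 and 0.18, with a mean of 2.00 ± 0.98 (SE, n = 4) and an adjusted p of 0.363 by limma. Both EHF probes had their highest blood level in animal 1 and their highest endometrial level in animal 3. Their ratios were farther apart in animals 2 and 4, where the dimmer probe was well above background in neither tissue.

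The inhibitors of surface proteases differed from each other in level pattern. SPINT1 was at 7.26, 5.40, 11.44 and 7.03 in endometrium and at 5.97, 6.34, 7.47 and 6.09 in blood. It was higher in blood in animal 2 alone, with log2 ratios of 1.29, -0.94, 3.97 and 0.94, a mean of 1.31 ± 0.79 (SE, n = 4) and an adjusted p of 0.451 by limma. Without animal 3 the mean was 0.43.

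SPINT2 was at 13.76, 13.56, 15.56 and 12.88 in endometrium and at 10.95, 12.35, 10.89 and 11.72 in blood, well above background in every channel. All endometrial levels lay above all blood levels, by 0.53 between the nearest animals. The log2 ratios were 2.81, 1.21, 4.67 and 1.16, with a mean of 2.46 ± 0.69 (SE, n = 4), a fold of 5.51, and an adjusted p of 0.192 by limma, so SPINT2 was not called. The range over the blood of the 4 animals was 1.46 for SPINT2, 1.49 for SPINT1 and 1.99 for ELF3, and it reached 6.12 for MUC1.

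**Figure D2:**
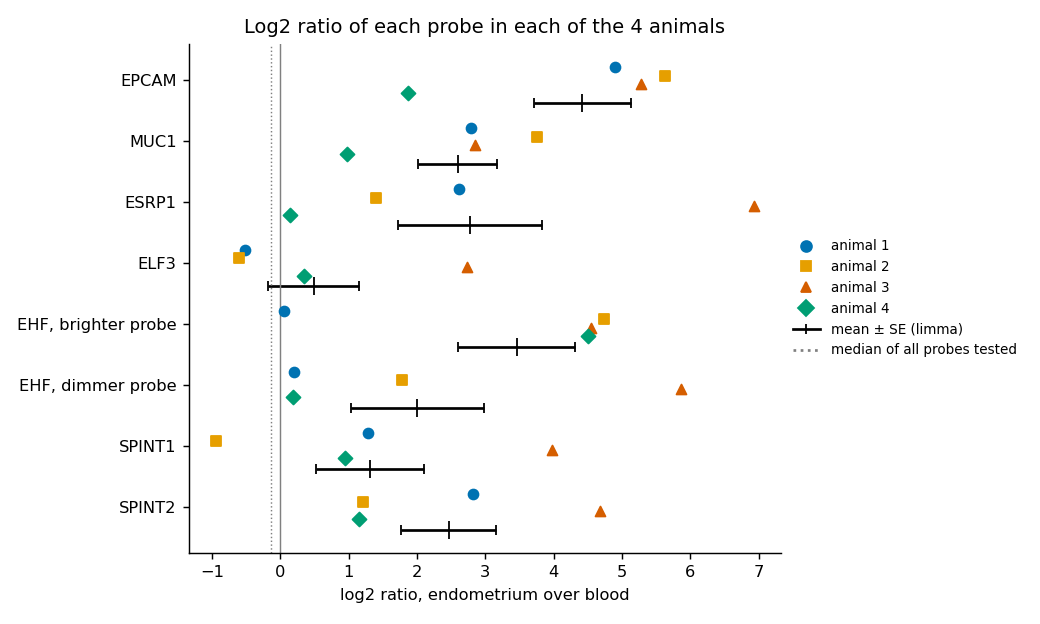
Log2 ratio of endometrium over blood (x axis) of each probe (y axis) in each of the 4 animals, with the mean and limma's SE in black. The dotted line is the median of all probes tested, -0.14. EPCAM, MUC1, ESRP1, both EHF probes and SPINT2 are above 0 in all 4 animals as means of 2 arrays, whereas ELF3 and SPINT1 have ratios on both sides of 0.

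The members, chosen by name but with earlier results of these data known, shared the animal with the highest endometrial level. The endometrial level was highest in animal 3 for 7 of 7 genes, and for 28.0% of all probes tested. The lead of animal 3 over the next animal ranged from 1.80 for SPINT2 to 4.30 for ELF3. In blood, animal 3 was highest for 4 of the 7 genes, EPCAM, MUC1, ELF3 and SPINT1, and for 22.2% of all probes. The highest log2 ratio was also that of animal 3 in 4 of the 7 genes. The median log2 ratio of the 7 genes was 2.61, 1.40, 4.54 and 0.98 in animals 1 to 4. The ratios of all probes tested were also more spread in animal 3, with an SD of 2.37 against 1.39 to 1.63 in the other animals. Its endometrial channels had the lowest shares of spots well above background of all channels, 65.2% and 66.4%. Without animal 3 the mean log2 ratios were 4.13 for EPCAM, 2.51 for MUC1, 1.38 for ESRP1, -0.26 for ELF3, 3.09 for the brighter and 0.72 for the dimmer EHF probe, 0.43 for SPINT1 and 1.73 for SPINT2.

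Over the 8 levels, those of 4 animals in 2 tissues, Pearson's r between members ranged from 0.44 for ELF3 with SPINT2 to 0.94 for ELF3 with SPINT1, with a median of 0.65 over 21 pairs. ESRP1 and SPINT2 gave 0.89, and MUC1 and EHF 0.82. These correlations are descriptions, since the points share animals, arrays and tissues. The named genes outside the members with levels most like the mean profile of the 7 were KANK1, BEX5, ECI2, SPACA3 and UPK1B, with r from 0.978 to 0.993 over the same 8 levels. KANK1 encodes a regulator of the actin cytoskeleton and UPK1B a uroplakin of urothelium. The log2 ratios of KANK1, BEX5, ECI2 and UPK1B ranged from 2.07 to 2.39. Of the 8 blood channels, UPK1B was well above background in 1, ECI2 in 2, KANK1 in 5 and BEX5 in 8. SPACA3 was well above background in none of the 8 blood channels and was at least 1.34-fold higher in endometrium. None of the 5 was called, the lowest adjusted p being 0.193 for BEX5 by limma.

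Of genes known to act with EPCAM at the membrane, the tetraspanin CD9 was at a log2 ratio of 2.01. The claudin CLDN7 was at 0.54 and the hyaluronan receptor CD44 at -0.21. Limma called none of these 3, with adjusted p values of 0.284, 0.793 and 0.892. The ratios of CLDN7 in animals 1 to 4 were -0.86, -0.11, 3.68 and -0.56, so no direction is given for CLDN7. CD9 alone of the 3 was at the unadjusted threshold. Of the mucins and their glycosylation enzymes 2 of 6 were tested. MUC20 was called, at 3.84 and an adjusted p of 0.0131, on its brighter probe, while its dimmer probe was not tested, and GALNT3 was at 0.01.

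Of the other splicing regulators and targets of ESRP1, 5 of 10 were tested and limma called 0, with 1 higher at the unadjusted threshold. The paralogue ESRP2 was at a log2 ratio of -1.13, PTBP1 at -1.12, and FGFR2, a receptor spliced by ESRP1, at 1.04. The mean of ESRP2 came mostly from animal 3, with ratios of -0.07, 0.10, -3.95 and -0.59 in animals 1 to 4. ESRP2 was well above background in 6 of 8 endometrial and 8 of 8 blood channels. RBFOX2 was at 2.72 by a probe well above background in 1 of 8 blood channels, and at 0.75 by its other probe, which was higher in blood in animals 3 and 4. Of the epithelial transcription factors 5 of 7 were tested and 1 was called, OVOL2, a zinc finger factor that maintains the epithelial state, at 5.15 and an adjusted p of 0.0142. OVOL2 was well above background in 8 of 8 endometrial and 2 of 8 blood channels. ELF5, an ETS factor like ELF3 and EHF, was at 2.30 with an adjusted p of 0.10, KLF5 at -0.92 and SPDEF at -0.89.

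Factors that repress epithelial genes were not called. For ZEB1, ZEB2, SNAI1 and SNAI2 the log2 ratios of the brightest probes were -0.60, -1.31, -1.0 and 1.73, and 0 of 4 passed the unadjusted threshold. The other ZEB2 probe, well above background in all channels, did pass it, at -2.30 with an adjusted p of 0.219 by limma, and was lower in endometrium in 4 of 4 animals. The ETS factors of leukocytes were also not called, with log2 ratios of -1.44 for SPI1, -1.33 for ELF4, -0.83 for ELF1 and -0.77 for FLI1, and again 0 of 4 at the unadjusted threshold. Of the serine proteases and growth factor genes linked to SPINT1 and SPINT2, 5 of 10 were tested and limma called 0. The membrane protease PRSS8 was at 2.12, higher in all 4 animals but by only 0.08 in animal 2. It was the 1 gene at the unadjusted threshold. HGF was at 1.68, MST1 at -0.78 and the HGF receptor MET at 0.76. In animals 1 to 4 the ratios of HGF were 1.03, 0.51, -0.33 and 5.52. Those of MET were 0.52, -0.94, 3.38 and 0.08. HGF was well above background in 4 of 8 endometrial and 2 of 8 blood channels.

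Markers of the sorted cells and of other cell types were measured on the same arrays. CD14 itself stood well above background in each of the 16 channels and had a mean log2 ratio of -0.17. Its log2 ratios were -2.09, 0.31, 0.65 and 0.44 in animals 1 to 4. In endometrium its level ran from 6.07 in animal 2 to 14.04 in animal 1. In blood it ran from 5.76 to 16.12 in the same animals. The macrophage protein CD68 was at a log2 ratio of 1.61 with an adjusted p of 0.276 by limma. Of 13 other epithelium markers tested, 7 were called and all 7 were higher in endometrium. The log2 ratios were 5.88 for KRT7, 5.11 for CDH1, 4.74 for TSPAN1 and 4.68 for MAL2. Of the 8 blood channels, KRT7 was well above background in 2, TSPAN1 in 1, CDH1 in 6 and MAL2 in 8. The summed level of the 13 markers was 13.32 to 17.35 in endometrium and 10.03 to 12.78 in blood on the log2 scale. Among them OCLN alone was above background in no blood channel. The endometrial level was highest in animal 3 for 13 of these 13 genes, as for the 7 members. The count was 4 of 5 for epithelial transcription factors and 7 of 8 for trophoblast markers. For uterine gland markers it was 3 of 5, and for endothelium markers 2 of 4. It was 0 for stroma markers and for those of macrophages and monocytes, T and NK cells and B cells.

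Uterine gland markers were called in 3 of 5, with a summed level of 15.64 to 18.02 against 10.31 to 11.51 in blood, led by SERPINA14, the uterine serpin, at a log2 ratio of 6.53. Trophoblast markers were called in 7 of 8, with a summed level of 15.58 to 17.29 against 11.44 to 13.18. The other, PAG1, was read by a probe found only through its gene identifier. It was at a log2 ratio of -2.10, lower in endometrium at the unadjusted threshold, with an adjusted p of 0.230 by limma. Its level in blood was 9.55 to 12.77, well above background in all 8 channels, and is part of the summed level. Whether this probe reads a pregnancy-associated glycoprotein was not tested. PAG17, a pregnancy-associated glycoprotein, was by the brightest of its probes above background in no blood channel and at least 6.97-fold higher in endometrium, PRP6 was at a log2 ratio of 5.74, CSH1 at 5.45 and PRP1 at 5.25. The median log2 ratio of the trophoblast markers was 4.84 to 5.43 in the 4 animals, a narrower range than that of the members, 0.98 to 4.54. Stroma markers were called higher in endometrium in 2 of 7, with a summed level of 8.12 to 17.78 against 6.90 to 11.64 in blood. Macrophage and monocyte markers were called in 2 of 9, C1QA and C1QB, with 17.37 to 18.94 against 16.45 to 18.44. At the unadjusted threshold 5 of the 7 stroma markers and 6 of the 9 macrophage and monocyte markers were higher. Endothelium markers were called in 0 of 4 by limma, with 8.63 to 13.63 against 7.53 to 9.21, and 2 of them were higher at the unadjusted threshold. T and NK cell markers and B cell markers were called in 0 of 4 each by limma, and at the unadjusted threshold 2 T and NK cell markers were higher and 2 B cell markers lower in endometrium. The part of each cell type in the levels of the members was not tested.

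**Figure D3:**
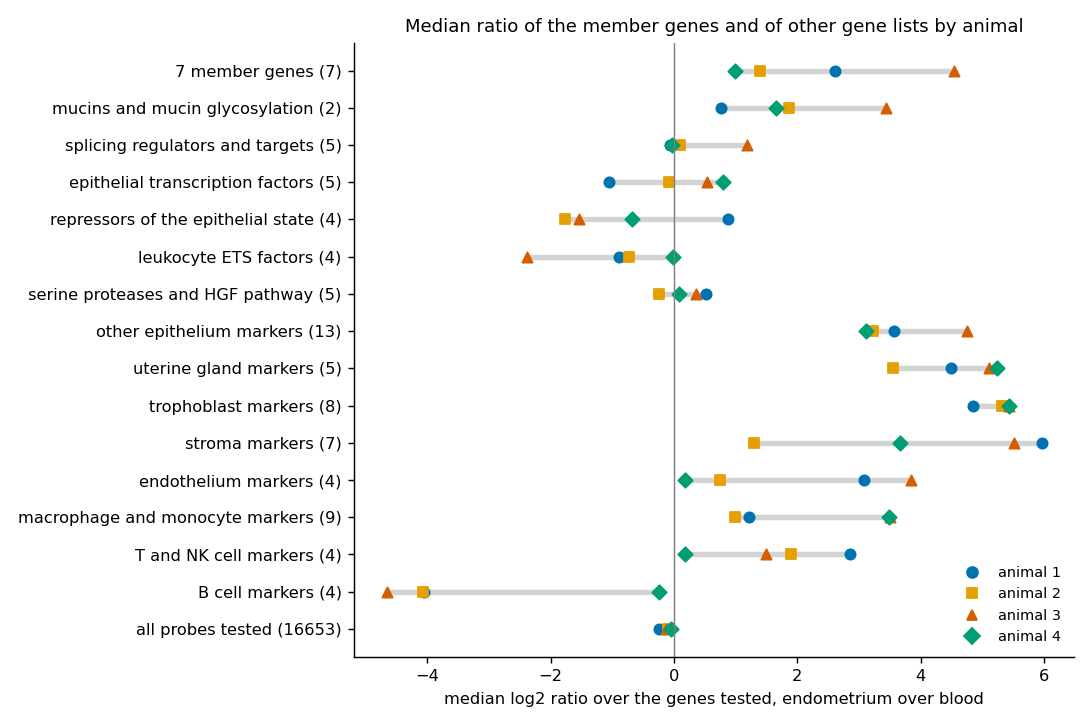
Median log2 ratio of endometrium over blood (x axis) over the tested genes of each list (y axis, with the number tested), for each of the 4 animals. The 7 member genes run from 0.98 in animal 4 to 4.54 in animal 3, and the other epithelium markers from 3.11 to 4.75 in the same animals.

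Across the 17 alternatives for EPCAM and up to 17 for each other probe, with the scanner files as attached left aside, EPCAM was called in 7, MUC1 and the brighter EHF probe in 1 each, and ESRP1, ELF3, SPINT1, SPINT2 and the dimmer EHF probe in none. The lowest adjusted p reached by SPINT2 was 0.0804. In these alternatives the log2 ratio of EPCAM was 3.03 to 5.26 and that of SPINT2 1.73 to 2.90. With the scanner files as attached they were -1.56 and 0.01.

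**Figure D4:**
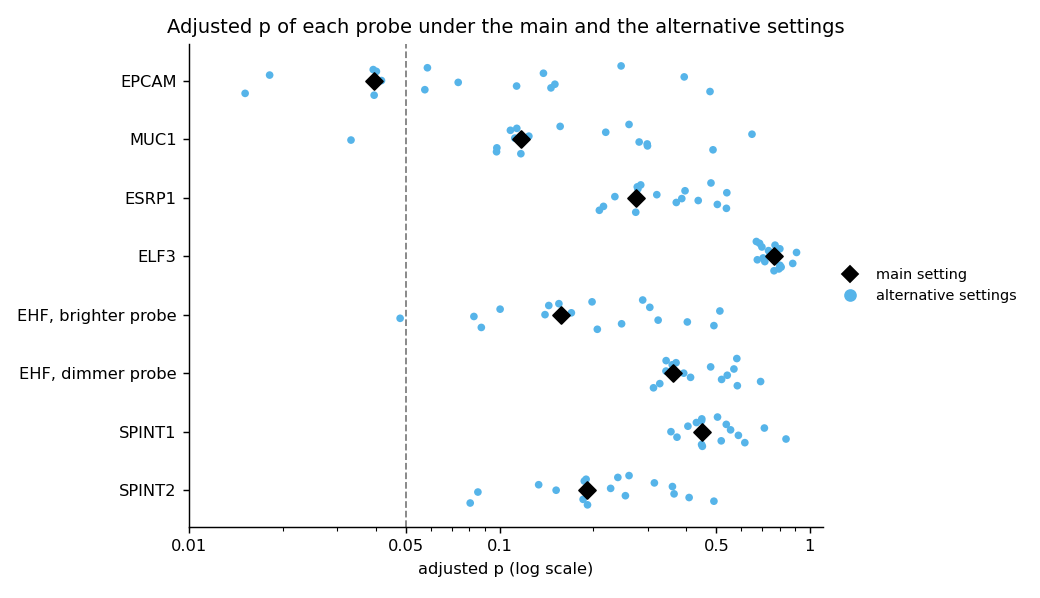
Adjusted p (x axis, log scale) of each probe (y axis) at the main setting (black diamonds) and under the alternative settings other than the scanner files as attached (blue points), with the threshold of 0.05 as a dashed line. EPCAM, at 0.0394, ranges from 0.0151 to 0.477 and lies on both sides of the line, and ELF3 lies between 0.673 and 0.907.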

How the data were processed

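RNA of endometrial and blood CD14+ cells from 4 cows was measured on 8 Agilent bovine arrays with 2 colours, giving 16 samples. Per the labels and the file headers, Feature Extraction (version 9.5 in the labels, 10.5.1.1 in the headers) read the spots. The authors deposited scanner tables with the intensity of each spot in each dye, which hold 44407 spots, 1417 of them controls. They also deposited a table of log2 values, which the methods describe as normalized within arrays by lowess and between channels by quantiles, and whose columns share a median of 8.00. Spots of a probe were averaged. To match them, the signals of each channel were put by rank on the values of a column, and the spots of a probe were compared as a set. In this way each of the 16 columns was equal, at 100% of the spots within 0.001, to 1 channel. It was the labeled dye in the other scanner file of its animal, the one under the other technical replicate. Compared spot by spot, 40.9% to 41.0% were equal. With the file attached to its own replicate, at most 0.714% were equal as sets. Flags for background were therefore read through this match, and the files as attached form an alternative chosen after seeing the data.

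A probe entered the test if all its spots were well above background in 4 or more of the 8 channels of a tissue. Log2 ratios within animals were tested with limma 3.58.1 in R 4.3.3 (lmFit and eBayes, Benjamini-Hochberg adjustment), and this test was also run on simulated ratios. The design pairs the tissues of an animal. As a check, the deviations of its tissues from the tissue means were correlated at r of 0.628, 0.372, 0.239 and 0.452 in animals 1 to 4. SE values are limma's. Of several probes of a gene, the brightest stands for it in counts. At most 4 genes of each list, those with the largest absolute log2 ratio, are named, and CD14 and CD68. Bounds used normexp with an offset of 50, loess and Aquantile. Summed levels are the log2 of the sum of linear values over a list. Names of 13901 probes were taken from or updated with a RefSeq gene table, assembly ARS-UCD2.0. The share of spots well above background was 65.2% to 82.9% by channel, and no spot was saturated. Arrays have no read depth, and their number limits precision.

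The members and lists were chosen with earlier results of these data known. Promoters and the qPCR of the study were not analysed here. The result of 1 gene is not reported here.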

Additional observations from a re-analysis of the deposited data

Results flagged for a closer look

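Among 24 groups of 4 values, the levels of 8 probes in each tissue and their ratios, 3 held a value farther from its neighbour than Dixon's 95% limit for the share of a group's range, and chance alone passes that limit in about 1 group in 20. The log2 ratio of the brighter EHF probe was low in animal 1, with a gap of 0.951 of the range. The blood level of the dimmer EHF probe was high in animal 1, at 0.844. The blood level of ESRP1 was high in animal 2, at 0.867, where it was the only blood sample with ESRP1 well above background.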

How the results depend on the processing

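The main test called 224 of 16653 probes, 204 of them higher in endometrium, and 1 of the 7 member genes, EPCAM. The count over all probes was 11 with normexp and loess on the scanner signals, 123 with no filter on dim probes, 0 to 180 with 1 animal left out, and 0 by the methods' analysis of variance after adjustment, where 1229 were at the unadjusted threshold. It was 64 without animal 1, 95 without animal 3 and 0 without animal 4, where 2674 were at the unadjusted threshold. As for the pairing, a fit with no replicate block called 38. The count of member genes was 0 with normexp and loess, with the Feature Extraction processed signals, with no filter, with no replicate block and by the analysis of variance, and 0 to 1 with 1 animal left out. Under these settings 4, 5, 4, 2 and 2 of the 7 genes were at the unadjusted threshold, and 4 to 6 with an animal left out. EPCAM was called in 7 of 17 alternatives, and in the fit with a dye term its adjusted p was 0.0736. ELF3 turned to -0.26 without animal 3 and was at up to 0.85 without another animal. With normexp and loess the log2 ratios were lower, at 1.66 for MUC1, 0.68 for ESRP1, 1.79 for the brighter EHF probe and 0.75 for SPINT1, while SPINT2 stayed at 2.37. With the scanner files as attached, 0 probes and 0 members were called, 359 and 0 at the unadjusted threshold, and EPCAM, MUC1 and the brighter EHF probe were at -1.56, -0.99 and -1.06. The cause of these changes was not tested, except that reading the files as attached turns the ratios of animals 1, 2 and 4. Centring the ratios on the medians of the animals, -0.24, -0.10, -0.13 and -0.05, and the 2 slides taken one at a time changed no call of a member and no sign of its mean. Within animals, the sign differed between the arrays for ESRP1 in animal 4 and the dimmer EHF probe in animal 1.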
